A study of Mus musculus with 15 samples.

Results

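Muscle wasting is carried out largely by the ubiquitin-proteasome system and by autophagy, and a small group of transcripts is widely used to follow it. The 10 genes described here are the muscle ubiquitin ligases Fbxo32 (atrogin-1, also called MAFbx) and Trim63 (MuRF1), the forkhead factors Foxo1, Foxo3 and Foxo4, the glucocorticoid-responsive regulators Klf15 and Fkbp5, the C/EBP factors Cebpd and Cebpb, and the TNF receptor family member Eda2r. They were selected by gene symbol, and all 10 were present among the 13602 symbols of the count table. Of the 10, 9 had enough tags to be tested among 11062 genes, and Foxo3 did not.

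FoxO factors drive the 2 ligase genes when insulin and IGF-1 signalling through Akt is low, because Akt keeps FoxO proteins out of the nucleus by phosphorylation. Glucocorticoids act through their receptor, a DNA-binding factor, to raise Fkbp5, Klf15, Cebpd and Trim63 in muscle, and fasting engages both arms. Eda2r binds the ectodysplasin isoform EDA-A2 and signals through noncanonical NF-kB, and it has been linked to muscle loss in tumour-bearing mice.

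The libraries came from the gastrocnemius of male mice, 8 wild-type animals carrying the floxed gene (controls) and 7 with a Cpt1b skeletal muscle knockout. Cpt1b is the muscle enzyme that loads long-chain fatty acids onto carnitine for entry into mitochondria. Titles and design text give chow for 12 to 14 weeks, while the diet field of every sample reads 45% HFD, so both groups carry the same entry whichever is right. No source used here gives the Cre driver, the deleted exons or the ages. Each library was made by SAGE, which counts 1 short tag per transcript, so that a level does not scale with transcript length. Levels are CPM (tags scaled to a common library total, after TMM adjustment), and differences are log2 fold changes, knockout minus control. Each library carries its own identifying number in its description, and the numbers of mice and libraries are equal. Beyond this, the labels do not state that each library is a separate mouse. If some shared an animal, the p-values would measure technical spread.

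Total tags per library ran from 8334436 to 19397255. Control replicate 7 and knockout replicate 4 lay farthest along the leading principal component of all tested genes, at 51.2 and 76.2 against -43.0 to 29.7 for the other libraries, and they also held the most tags. The Cpt1b level was 7.64 ± 3.17 CPM over the 8 controls and 3.79 ± 1.64 CPM over the 7 knockouts (SD), and 5 knockouts lay below every control. Its log2 difference of -1.03 ± 0.31 (SE) did not pass the edgeR test over all genes (adjusted p = 0.103) but differed by an exact permutation test (two-sided p = 0.00389). All 9 skeletal muscle fibre markers were present in every library, with summed levels of 71971 to 89056 CPM in controls and 61508 to 87299 CPM in knockouts.

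The tags behind the values can be predicted from the annotation as the 27 bases that start at the last CATG of a transcript. SAGE libraries are usually anchored at that site, although the labels name no enzyme. They are shown for the genes called by the test and for the least abundant genes, 5′ to 3′, with the anchoring site in capitals (GENCODE M21, GRCm38).
Eda2r: CATGagtggatactgacaagttgtgtc
Cebpd: CATGacatatactgactcgattttcca
Foxo3: CATGtaaataaagctttggtgacactc
Cebpb: CATGgcggccggtttcccgttcgccct
The Eda2r tag lies at chrX:97333895-97333921 on the minus strand and the Cebpd tag at chr16:15890959-15890985 on the plus strand, both in the 3′ UTR. The Foxo3 tag, at chr10:42181847-42181873 on the minus strand, is also in the 3′ UTR, but the principal transcripts predict 3 distinct tags for Foxo3, and 2 for Eda2r. The Cebpb tag, at chr2:167689474-167689500 on the plus strand, was the 1 tag of the 10 predicted inside coding sequence, 945 bases from the transcript end. None of the 10 predicted tags was shared with another protein-coding gene.

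Of the 9 genes tested, 1 rose and 1 fell in knockout muscle. Eda2r fell to 0.553 of its control level and Cebpd rose 2.12-fold. Neither ubiquitin ligase passed the test, and nor did Foxo1, Foxo4, Klf15, Fkbp5 or Cebpb. Among all genes tested 1.67% were called higher and 0.497% lower at an edgeR adjusted p of 0.05 (2.17% in all), and 1.19% had groups that did not overlap. Of the 9, 5 had a positive and 4 a negative log2 difference, with a median of 0.09 against 0.0047 over all genes tested. An unadjusted p under 0.05 was found in 3 of the 9 (Eda2r, Cebpd and Klf15) and in 13.6% of all genes.

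**Figure D1:**
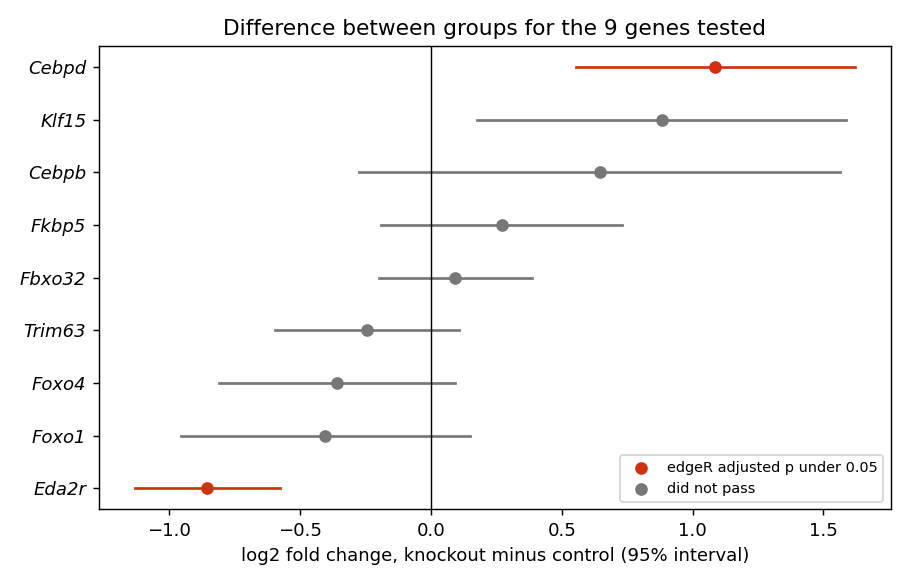
Log2 fold change (knockout minus control) of each tested gene on the horizontal axis, with bars for the 95% interval from the edgeR fit (8 control and 7 knockout libraries). Eda2r (-0.85) and Cebpd (1.09) are the genes past an adjusted p of 0.05, drawn in red.

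In controls the 10 genes spanned 3 orders of abundance. Fbxo32 and Foxo4 led with means of 728 and 653 CPM, which differ by less than their SDs of 120 and 146. Trim63 followed at 383 CPM, Cebpd at 55.6 and Eda2r at 42.6. Fkbp5 and Foxo1, at 18.4 and 17.0 CPM, were within their spread of each other. Klf15 (5.45 CPM), Cebpb (1.28 CPM) and Foxo3 (0.637 CPM) were the lowest.

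**Figure D2:**
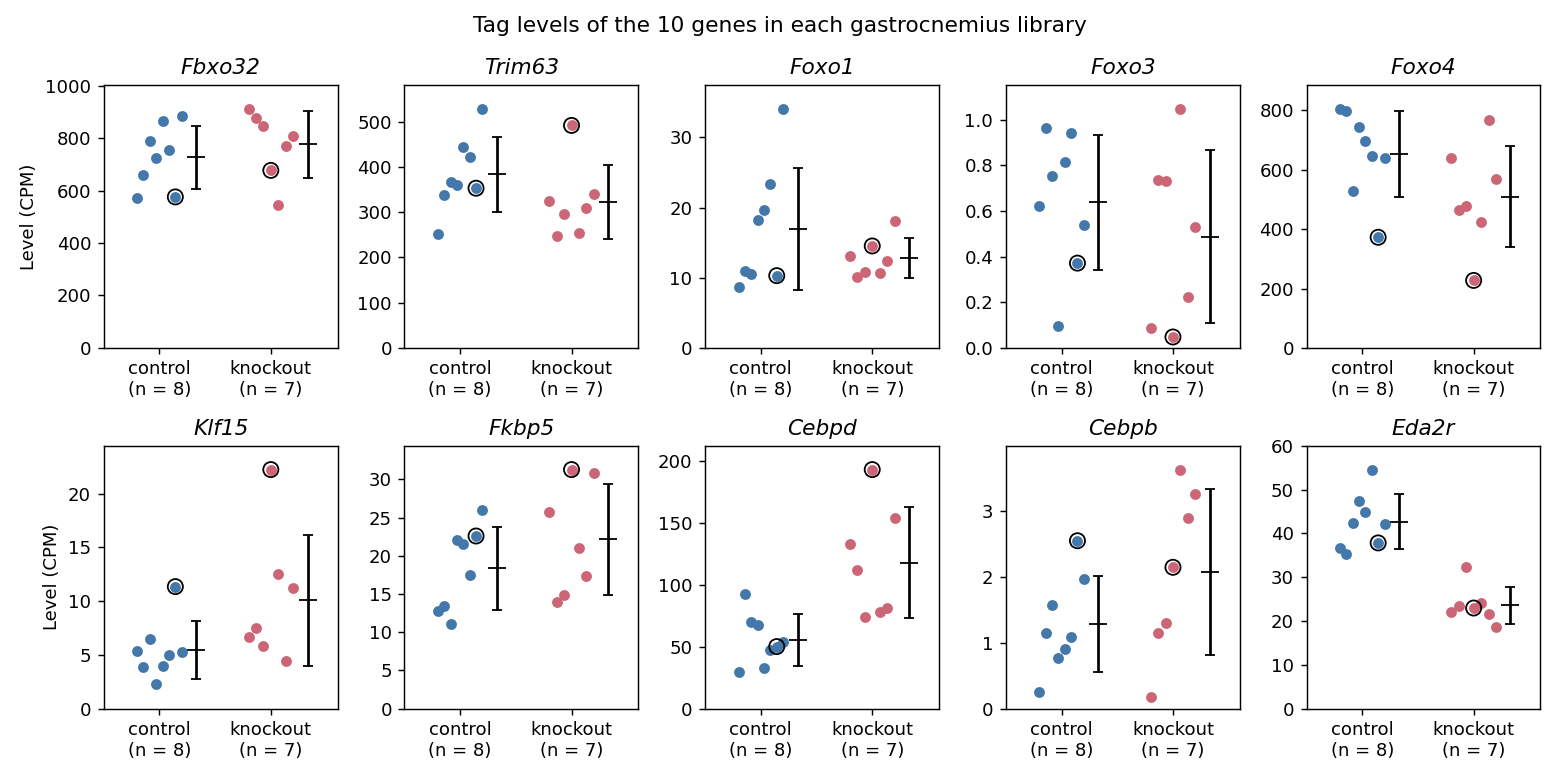
Level of each gene in CPM (vertical axis, starting at 0, scaled per panel) for every control and knockout library, with the mean (tick) and SD (bar) beside the points. Rings mark control replicate 7 and knockout replicate 4. Eda2r is the one panel in which the groups do not overlap.

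The ligases were examined first. Fbxo32 is the F-box subunit of an SCF ligase that targets MyoD and the initiation factor eIF3f. Its level ranged from 572 to 886 CPM in controls (median 739) and from 544 to 913 CPM in knockouts (median 810). The 2 ranges nearly coincided. The log2 difference was 0.09 ± 0.14 (SE, 95% interval -0.20 to 0.39, edgeR adjusted p = 0.770).

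Trim63 is a RING-finger ligase of the sarcomere that targets thick-filament proteins. Controls ran from 252 to 528 CPM (median 364) and knockouts from 248 to 492 CPM (median 308). Knockout replicate 4, at 492 CPM, stood well above the other 6 knockouts, which reached at most 340 CPM. With all libraries the log2 difference was -0.25 ± 0.17 (95% interval -0.60 to 0.11, adjusted p = 0.534). Without control replicate 7 and knockout replicate 4 it was -0.40 (adjusted p = 0.154, over a range of 0.154 to 0.723 across the alternatives).

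A ratio taken within a library does not depend on scaling, so the 2 ligases were also compared that way, a choice made after their levels were seen. Trim63 tags per Fbxo32 tag ran from 0.441 to 0.612 in controls (median 0.513). In knockouts the ratio ran from 0.282 to 0.725 (median 0.400). The 5 lowest knockouts lay below every control, replicate 5 (0.468) lay within the controls, and knockout replicate 4 lay above every control. The log2 difference of -0.34 did not pass an exact permutation test (two-sided p = 0.0566, adjusted p = 0.113 over 4 ratios computed). Without knockout replicate 4 the difference was -0.48 (exact permutation p = 0.000999), and without any other single library p lay between 0.0501 and 0.123.

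The Trim63 promoter is shown because it carries a glucocorticoid receptor element beside a FoxO element, an arrangement known to join the 2 arms. The sequence is the 250 bases before the start site, chr4:134314870-134315119 on the plus strand (RefSeq, GRCm38.p6), in lower case with motif matches in capitals.
Trim63: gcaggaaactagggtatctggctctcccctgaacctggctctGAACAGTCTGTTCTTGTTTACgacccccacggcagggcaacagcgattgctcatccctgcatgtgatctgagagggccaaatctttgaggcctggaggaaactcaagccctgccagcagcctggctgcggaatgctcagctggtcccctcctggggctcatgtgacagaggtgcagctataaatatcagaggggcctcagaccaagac
The motifs searched on both strands were the receptor palindrome GAACANNNTGTTC, the receptor half-site AGAACA and the FoxO core GTAAACA, besides the E-box CACGTG. The capitals hold the palindrome from base -208 to -196, overlapped by a half-site, read on the other strand, from -200 to -195. A FoxO core, also read on the other strand, follows directly from -194 to -188. Over 32851 RefSeq promoter windows of 300 bases, searched on both strands, the palindrome occurred in 0.0578%, the half-site in 19.0% and the FoxO core in 3.65%. Palindrome and FoxO core occurred together in 2 windows, of which Trim63 was one. Windows were found for 7 of the 10 genes, and Fbxo32, Foxo4 and Cebpd had none. Of the other 6, Eda2r held a FoxO core, and no window of these 6 held the receptor palindrome or half-site. The E-box, found in 7.15% of all windows, occurred 3 times in Klf15 and once each in Fkbp5 and Eda2r. Such a match is a description of letters and not of binding.

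The FoxO factors were lower in knockouts by their means, with none past the test. Foxo1, the member most tied to fasting and insulin, had 8.69 to 34.1 CPM in controls (median 14.6) and 10.1 to 18.2 CPM in knockouts (median 12.4). The knockouts fell inside the wider control range, and control replicate 8 was the highest library. Its log2 difference came to -0.40 ± 0.26 (95% interval -0.96 to 0.15, adjusted p = 0.518). Without control replicate 8 it was -0.18 (adjusted p = 0.746, over a range of 0.249 to 0.851 across the alternatives).

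Foxo4 was the most abundant of the 3. Its level was 373 to 806 CPM in controls (median 671) and 227 to 767 CPM in knockouts (median 478), so the groups overlapped widely. In the edgeR test the log2 difference was -0.36 ± 0.21 (95% interval -0.81 to 0.09, adjusted p = 0.477). The lowest library of each group was the one that stood apart, control replicate 7 (373 CPM) and knockout replicate 4 (227 CPM). With the group means removed, Foxo4 fell along the leading principal component of the other genes (Pearson r = -0.93, Spearman rho = -0.87, n = 15, permutation p = 8e-05 and 0.00031, adjusted p = 0.00126 over 18 relations). The relation was r = -0.98 among controls and -0.92 among knockouts, and r = -0.80 without those 2 libraries. What that component stands for was not tested. Against log2 total tags Foxo4 gave r = -0.85 (rho = -0.71, permutation p = 0.00015 and 0.00405, adjusted p = 0.00126 over the same 18 relations). It was r = -0.79 among controls, -0.92 among knockouts and -0.81 without control replicate 1 and knockout replicate 4. The part of depth in the Foxo4 levels was not tested.

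Foxo3, the factor most often tied to autophagy and Fbxo32, gave 1 to 13 tags per library. Controls ran from 0.0967 to 0.962 CPM and knockouts from 0.0476 to 1.05 CPM, and the gene did not pass the low-count filter. With no filter the log2 difference was -0.40 ± 0.51 (edgeR adjusted p = 0.754). Foxo6, the fourth FoxO gene, was lower still, with means of 0.243 CPM (controls) and 0.200 CPM (knockouts).

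The glucocorticoid-responsive regulators had higher means in knockouts, also without passing. Klf15, a zinc-finger factor that drives amino acid breakdown in muscle, ran from 2.32 to 11.4 CPM in controls (median 5.14) and from 4.45 to 22.2 CPM in knockouts (median 7.53). In 6 of 7 knockouts it was above the control median. The highest library of each group was again control replicate 7 (11.4 CPM) and knockout replicate 4 (22.2 CPM). The log2 difference was 0.88 ± 0.34 (95% interval 0.18 to 1.59, unadjusted p = 0.0171, edgeR adjusted p = 0.243).

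Those 2 libraries pulled Klf15 in opposite directions. Without control replicate 7 its log2 difference was 1.14 and passed (adjusted p = 0.0463), and without knockout replicate 4 it was 0.55 (adjusted p = 0.5004). Without both it was 0.79 (adjusted p = 0.0848). With the group means removed, Klf15 rose along the leading component of the other genes (r = 0.86, rho = 0.76, n = 15, permutation p = 0.00021 and 0.00332, adjusted p = 0.00126), and r was 0.66 without the 2 libraries. The part of that component in the Klf15 difference was not tested. Against log2 total tags Klf15 gave r = 0.65 (rho = 0.51, permutation p = 0.0141 and 0.0621, adjusted p = 0.0636). Trim63 gave r = 0.63 (rho = 0.51, permutation p = 0.0222 and 0.0631, adjusted p = 0.0799). Without control replicate 1 and knockout replicate 4, r was 0.67 for Klf15 and 0.13 for Trim63.

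Fkbp5 is a co-chaperone that lowers the hormone affinity of the glucocorticoid receptor and is itself induced by it. It ran from 11.1 to 25.9 CPM in controls (median 19.5) and from 13.9 to 31.3 CPM in knockouts (median 21.0). Knockout replicates 4 and 7 were the 2 above every control. The log2 difference of 0.27 ± 0.22 did not pass (95% interval -0.19 to 0.73, adjusted p = 0.599).

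Cebpd, a leucine-zipper factor raised by glucocorticoids and by IL-6 through Stat3, rose in knockout muscle. Controls ran from 29.4 to 92.8 CPM (median 52.2) and knockouts from 74.2 to 193 CPM (median 112). All 7 knockouts were above the control median and 4 were above the highest control. The log2 difference was 1.09 ± 0.25 (95% interval 0.56 to 1.62, edgeR adjusted p = 0.0274), which ranked 142nd by p among the 185 genes called higher.

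The Cebpd call lay close to the threshold and was lost in 8 of the 15 fits without 1 library. Leaving out control replicate 1, 5, 6 or 8 gave an adjusted p of 0.0538, 0.0556, 0.0613 or 0.0551. Leaving out knockout replicate 1, 2, 4 or 7 gave 0.0545, 0.0563, 0.0557 or 0.0686. The log2 difference stayed between 0.93 and 1.23 in the 15 fits, and without both libraries that stood apart it was 0.90 (adjusted p = 0.0479). Knockout replicate 4 had the highest Cebpd level and also the highest summed level of 8 adipocyte markers, 1679 CPM against 874 to 1173 CPM in controls and 911 to 1679 CPM over the knockouts (exact permutation p = 0.131, two-sided, 0.437 when adjusted over 10 lists). In that list 1 marker was called lower and none higher, and no marker was at 0 in any library. Knockout replicate 7 had the second highest Cebpd level (155 CPM) but the lowest adipocyte sum of the knockouts (911 CPM). The part of other cell types in the Cebpd difference was not tested, and in a bulk sample fewer cells of a type and less RNA per cell cannot be told apart.

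Cebpb, its relative in fasting and inflammation, was far less abundant by its tag, with 2 to 48 tags per library. Controls ran from 0.248 to 2.55 CPM (median 1.12) and knockouts from 0.178 to 3.63 CPM (median 2.14). Knockouts included both the lowest library and the 3 highest. The log2 difference was 0.65 ± 0.44 (95% interval -0.27 to 1.56, adjusted p = 0.533).

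Eda2r fell, with every knockout below every control. Controls ran from 35.4 to 54.6 CPM (median 42.2, mean 42.6 ± 6.32, SD, n = 8) and knockouts from 18.6 to 32.4 CPM (median 23.0, mean 23.6 ± 4.27, n = 7). The gap between the groups was set by knockout replicate 3 (32.4 CPM), since the other 6 knockouts reached at most 24.0 CPM. The log2 difference was -0.85 ± 0.13 (95% interval -1.13 to -0.58, edgeR adjusted p = 0.000802), the fifth smallest p among the 55 genes called lower. In the 15 fits without 1 library the difference stayed between -0.95 and -0.80, with adjusted p from 0.000251 to 0.00304.

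**Figure D3:**
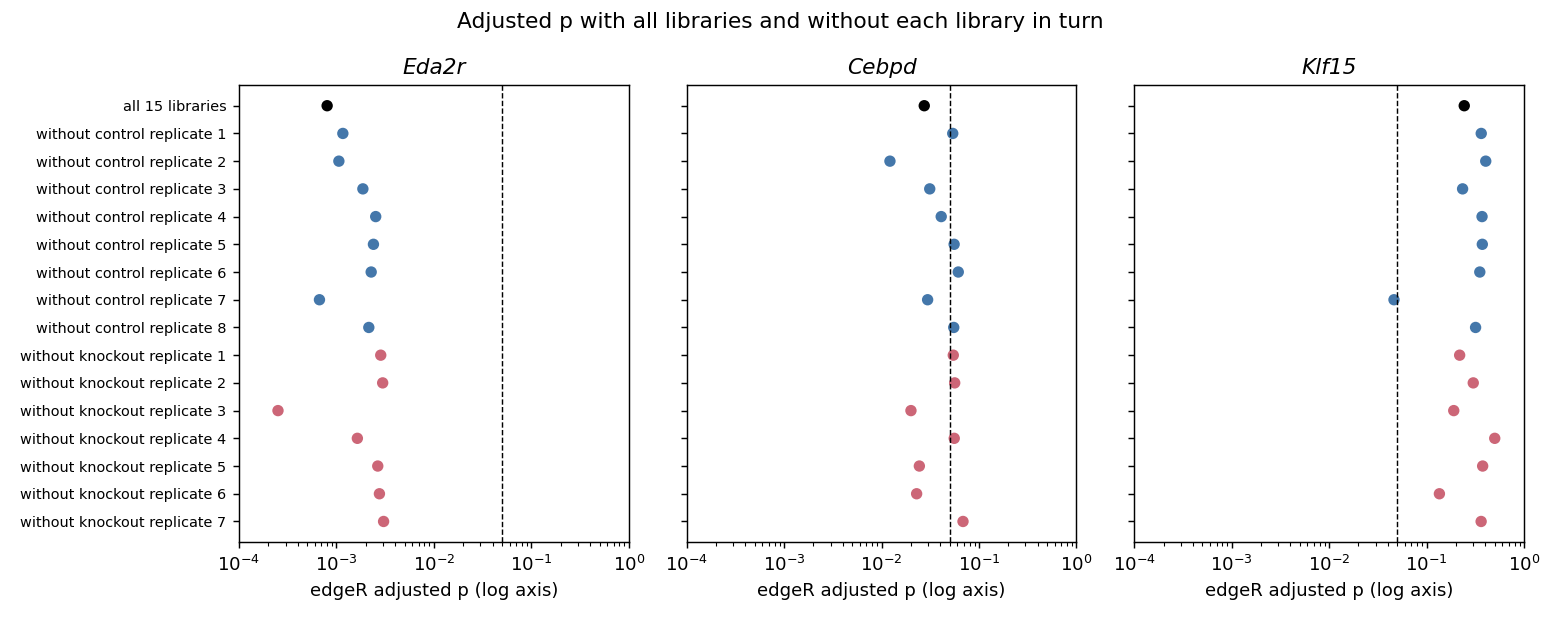
Adjusted p from the edgeR fit (horizontal log axis) with all 15 libraries and without each library in turn (rows), with a dashed line at 0.05. Eda2r stays below the line in every fit, Cebpd crosses it in 8 fits and Klf15 falls below it without control replicate 7.

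The Eda2r gene lies on the X chromosome from 97333840 to 97377216 on the minus strand. Its upstream sequence is shown because Eda2r was the clearest difference of the 10 and held the other FoxO core. It covers chrX:97377210-97377459, read on the minus strand (RefSeq, GRCm38.p6), with the match in capitals.
Eda2r: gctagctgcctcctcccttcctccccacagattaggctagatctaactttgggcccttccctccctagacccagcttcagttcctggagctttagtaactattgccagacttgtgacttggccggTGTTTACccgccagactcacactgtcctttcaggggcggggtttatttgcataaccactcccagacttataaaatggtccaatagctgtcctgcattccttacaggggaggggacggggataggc
The capitals mark the FoxO core, read on the other strand, from base -125 to -119. Neither Foxo1 nor Foxo4 passed the test of correlation with Eda2r across libraries once the group means were removed (Foxo1 r = 0.23, rho = 0.31, permutation p = 0.410, adjusted p = 0.642; Foxo4 r = -0.11, rho = -0.34, permutation p = 0.710, adjusted p = 0.785; n = 15, 36 pairs). For Foxo1 the pooled value joins r = 0.66 among controls and -0.69 among knockouts, and the difference between these was not tested.

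Fibroblast marker levels are given beside Eda2r. The summed level of 6 such markers (Col1a1, Col1a2, Col3a1, Dcn, Pdgfra and Lum) was 2176 to 3848 CPM in controls (median 3468) and 1231 to 3083 CPM in knockouts (median 1784). This difference had an exact permutation p of 0.00622 (two-sided, adjusted p = 0.0622 over 10 lists), and none of the 6 was called. Knockout replicate 3, the highest knockout for Eda2r, was also the highest for the fibroblast sum, and knockout replicate 7 was the lowest for both. The order of the other knockouts differed. Knockout replicate 6 had a lower Eda2r level (21.6 CPM) than replicate 5 (24.0 CPM), but a higher fibroblast sum (2512 against 1512 CPM). Among controls the order differed as well, since control replicate 2 had the lowest Eda2r level (35.4 CPM) and the second highest fibroblast sum (3732 CPM). The part of fibroblasts in the Eda2r difference was not tested. The muscle fibre sum had medians of 81009 CPM in controls and 72225 CPM in knockouts (exact permutation p = 0.0339, adjusted p = 0.169). Of its 9 markers, 1 was called lower and none higher, against 0.497% and 1.67% of all genes.

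Of 15 tested genes of Eda2r and noncanonical NF-kB signalling, Eda2r was the one called, against 0.497% of all genes called lower, and the median log2 difference was -0.01. Without Eda2r none of 14 was called, with a median of 0.03. An unadjusted p under 0.05 was found in 13.6% of all genes in either direction. At an unadjusted p under 0.05, 2 others were higher, the kinase gene Chuk (IKK-alpha, log2 0.55 ± 0.17, adjusted p = 0.129) and Cdkn1a (0.52 ± 0.23, adjusted p = 0.333), and none was lower. The ligand gene Eda had 4.11 ± 0.936 CPM in controls and 3.21 ± 1.18 CPM in knockouts (log2 -0.35 ± 0.22, adjusted p = 0.502), with 6 of 7 knockouts below the control median. The kinase gene Map3k14 (NIK) stood at 4.19 ± 1.29 and 4.11 ± 1.59 CPM (adjusted p = 0.978). The p53 target Mdm2, listed since Eda2r is itself a p53 target, was at 39.4 ± 5.02 and 42.3 ± 2.95 CPM (adjusted p = 0.679). Relb, the transcription factor subunit of the noncanonical arm, was at 3.35 ± 0.886 and 2.50 ± 0.577 CPM (log2 -0.42 ± 0.20, adjusted p = 0.375), with 7 of 7 knockouts below the control median. These 6 genes were picked after their values were seen.

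Among animals of the same genotype, some of the 9 genes varied together. Of 36 pairs, 2 passed after adjustment (Pearson correlation of log2 CPM with group means removed, n = 15, permutation within groups). Trim63 and Foxo1 rose and fell together (r = 0.76, rho = 0.78, permutation p = 0.00034 and 0.001, adjusted p = 0.00648 and 0.0360). The correlation was 0.88 among controls, 0.68 among knockouts, 0.83 without the 2 libraries farthest from the Trim63 median and 0.88 without control replicate 7 and knockout replicate 4. Foxo1 and Trim63 were both highest in control replicate 8 (34.1 and 528 CPM) and lowest, among controls, in control replicate 1 (8.69 and 252 CPM).

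Foxo4 and Klf15 ran in opposite directions (r = -0.84, permutation p = 0.00036, adjusted p = 0.00648). By rank the relation did not pass (rho = -0.67, permutation p = 0.0143, adjusted p = 0.181). Without control replicate 7 and knockout replicate 4, the 2 libraries farthest from the Foxo4 median, r was -0.60 (permutation p = 0.0457, adjusted p = 0.389), compared with r = -0.82 among controls and -0.86 among knockouts when they are kept. The call after adjustment was not kept without them. Both genes followed the leading component described above.

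Fkbp5 varied with Trim63 (r = 0.69, rho = 0.65, permutation p = 0.00528 and 0.0151) and with Foxo1 (r = 0.68, rho = 0.60, permutation p = 0.00573 and 0.0215), each with an adjusted p of 0.0516 that missed the threshold. Without the 2 farthest libraries r was 0.60 and 0.59. The ligases themselves gave r = 0.41 (rho = 0.45, permutation p = 0.141, adjusted p = 0.613), with 0.86 among controls, -0.05 among knockouts and 0.70 without the 2 libraries that stood apart. Whether the groups differ in that correlation was not tested. Cebpd, the gene that rose, passed with none of the other 8, its largest correlation being with Trim63 (r = 0.42, rho = 0.31, permutation p = 0.140, adjusted p = 0.613, r = -0.02 without the 2 farthest libraries).

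**Figure D4:**
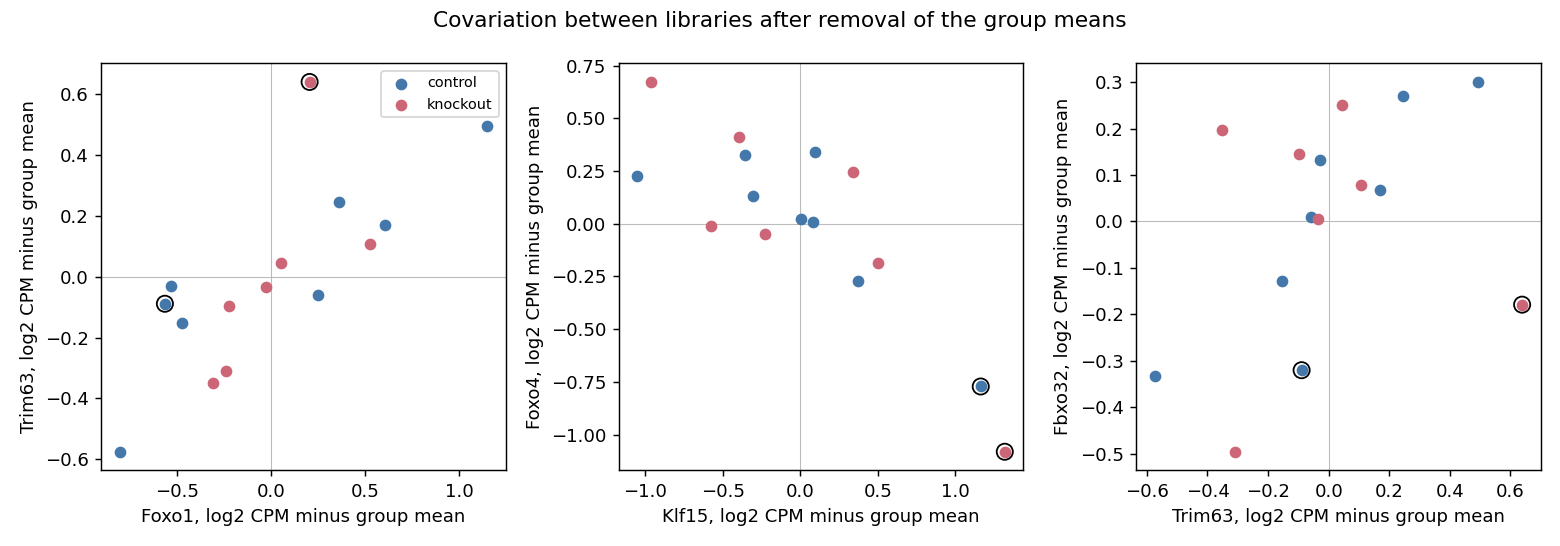
Log2 CPM minus the group mean for Trim63 (vertical) against Foxo1, Foxo4 against Klf15 and Fbxo32 against Trim63, 1 point per library. Rings mark control replicate 7 and knockout replicate 4, which sit at the lower right of the middle panel. Without them r is 0.88 in the first panel.

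Outside the 10, the genes with the most similar variation were found among 5479 others with a mean of at least 10 CPM, by Pearson correlation with group means removed over the 15 libraries and given as a description. For Cebpd these were Cdkn1a (r = 0.81, rho = 0.90), the cyclin-dependent kinase inhibitor p21, then Shmt1 (0.74, 0.74), a serine hydroxymethyltransferase, and Dnajb4 (0.73, 0.76), a heat shock co-chaperone. For Eda2r they were 2810004N23Rik (0.82, 0.79), Tmem42 (0.79, 0.70) and Cib1 (0.78, 0.83). Foxo1 was closest to Aff1 (0.84, 0.86), Sec24a (0.83, 0.83) and Glul (0.79, 0.73), the glutamine synthetase gene, itself on the glucocorticoid-responsive list.

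For Trim63 the closest were Prickle3, Mcrs1 and Ptrh2 (r = 0.87, 0.86 and 0.83), and for Fbxo32 they were Cops2, Mapt and 1600020E01Rik (0.89, 0.89 and 0.88). Fkbp5 was nearest to Tmpo, Eif4ebp1 and Stt3b (0.75, 0.74 and 0.74). Foxo4 followed Rcbtb1, Ephx1 and Nr1h2 at r = 0.99, 0.97 and 0.97, and Klf15 followed Timp3, Srrm1 and Med21 at 0.97, 0.94 and 0.93. Cebpb was closest to Trpc4ap, Wipf3 and Rapgef1 (0.91, 0.90 and 0.83).

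The list of glucocorticoid-responsive genes had 27 tested genes, of which 5 rose and none fell, against 1.67% and 0.497% of all genes, and the median log2 difference was 0.38. At an unadjusted p under 0.05, 11 were higher and none lower, against 13.6% of all genes in either direction. The list holds 7 of the 9 tested genes described above. Without them 4 of 20 rose, with a median of 0.38. Apart from Cebpd these were Pdk4, the pyruvate dehydrogenase kinase, from 1075 ± 250 to 2331 ± 471 CPM (log2 1.12 ± 0.17, adjusted p = 0.000532), and Angptl4, an inhibitor of lipoprotein lipase, from 93.2 ± 44.5 to 250 ± 80.4 CPM (1.42 ± 0.29, adjusted p = 0.0110). Ddit4 (REDD1), which restrains mTORC1, rose from 1.83 ± 0.817 to 4.73 ± 2.35 CPM (1.40 ± 0.32, adjusted p = 0.0256). The fifth was the small GTPase gene Rhob (0.89 ± 0.23, adjusted p = 0.0481), named after its value was seen. As background, Pdk4 and Angptl4 are also classical targets of the fatty acid-sensing PPAR receptors.

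The count of 5 fell to 2 when control replicate 1, 5 or 6, or knockout replicate 4 or 7, was left out, and to 3 when control replicate 8 or knockout replicate 2 was. Across the 24 alternatives it ran from 2 to 7, while the number called higher over all genes ran from 98 to 311. The list also held genes known to respond closely to the receptor that did not pass, 4 of which are given here, a choice also made after the values were seen. Tsc22d3 (GILZ) had 234 ± 28.6 CPM in controls and 222 ± 27.2 CPM in knockouts (adjusted p = 0.782). Zbtb16 had 31.1 ± 8.27 and 29.6 ± 6.93 CPM (adjusted p = 0.864), Klf9 264 ± 49.8 and 261 ± 18.1 CPM (0.966), and Per1 18.9 ± 6.03 and 20.9 ± 5.28 CPM (0.763). Other listed genes that did not pass were higher at an unadjusted p under 0.05, and these too were picked after their values were seen. They include Nfkbia (log2 0.75 ± 0.20, edgeR adjusted p = 0.0527), Sgk1 (0.83 ± 0.35, 0.307), Pik3r1 (0.39 ± 0.16, 0.275) and Tgm2 (0.38 ± 0.16, 0.307).

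Of 12 genes of the glucocorticoid receptor complex and its cofactors, edgeR and each of the 24 alternatives called none, while edgeR called 2.17% of all genes. An unadjusted p under 0.05 was found for 2, both higher, against 13.6% of all genes in either direction. The smallest p belonged to the chaperone Hsp90ab1 (514 ± 104 to 747 ± 242 CPM, log2 0.54 ± 0.18, adjusted p = 0.173). The receptor gene Nr3c1 averaged 83.4 ± 9.53 CPM over controls and 78.2 ± 6.85 CPM over knockouts (adjusted p = 0.696).

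The list of FoxO target genes, which includes Fbxo32, Trim63 and Klf15, had 28 tested genes. Of these 2 rose and none fell, against 1.67% and 0.497% of all genes (2 to 3 rose across the alternatives), and the median log2 difference was 0.03. At an unadjusted p under 0.05, 6 were higher and 2 lower, against 13.6% of all genes in either direction. Cat, the peroxide-degrading catalase, rose from 26.0 ± 4.54 to 72.9 ± 9.68 CPM (log2 1.49 ± 0.13, adjusted p = 1.26e-06), and the other was Pdk4. Both are PPAR targets as well. The autophagy genes Bnip3 (1906 ± 213 and 1940 ± 473 CPM, adjusted p = 0.947) and Gabarapl1 (11.3 ± 2.42 and 11.7 ± 1.97 CPM, 0.915) and the growth arrest gene Gadd45a (18.5 ± 5.08 and 16.7 ± 4.00 CPM, 0.741), chosen after their values were seen, did not pass. Among the 6 higher were the autophagy gene Map1lc3b (238 ± 39.0 and 300 ± 60.9 CPM, log2 0.33 ± 0.14, adjusted p = 0.319) and the ligase gene Fbxo30 (0.38 ± 0.13, 0.188). The 2 lower were Txnip (-0.48 ± 0.21, 0.315) and Pik3ip1 (-0.56 ± 0.26, 0.348). These 4 were also named after their values were seen.

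Among 17 muscle ubiquitin ligases edgeR called none at the adjusted threshold, against 2.17% of all genes. At an unadjusted p under 0.05, 2 were higher and 1 lower, against 13.6% of all genes in either direction. The smallest p was that of Trim54 (MuRF3), a close relative of Trim63, with 172 ± 35.9 CPM over controls and 124 ± 19.3 CPM over knockouts (log2 -0.47 ± 0.15, adjusted p = 0.137). It was below the control median in 7 of 7 knockouts. DESeq2, the fit without control replicate 7 and the fit without both libraries that stood apart each called 1 gene of this list lower. Over all genes these 3 fits called 159, 154 and 148 lower, against 55 by edgeR with all 15 libraries.

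The list of insulin, Akt and FoxO control, which includes Foxo1, Foxo4 and Fbxo32, had 26 tested genes. Of these 1 rose and none fell, against 1.67% and 0.497% of all genes. It was the growth kinase gene Mtor (3.75 ± 0.662 to 7.45 ± 1.87 CPM, log2 0.98 ± 0.18, adjusted p = 0.00511). At an unadjusted p under 0.05, 5 were higher and none lower, against 13.6% of all genes in either direction. The count called higher was 2 by DESeq2 and without control replicate 3. Over all genes these fits called 302 and 179 higher, against 185 by edgeR with all 15 libraries. Akt1, outside the naming rule, was at 46.1 ± 16.4 and 84.6 ± 30.7 CPM (log2 0.88 ± 0.25, adjusted p = 0.0871).

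Klf15-linked genes of amino acid breakdown gave 1 call in 13, Dbt, a subunit of the branched-chain ketoacid dehydrogenase (71.6 ± 13.1 to 109 ± 11.6 CPM, log2 0.61 ± 0.13, adjusted p = 0.0142), with a median of 0.39. The share of all genes called higher was 1.67%. At an unadjusted p under 0.05, 7 of the 13 were higher, Dbt and Klf15 among them, and none lower, against 13.6% of all genes in either direction. Leaving out control replicate 7 or knockout replicate 6 gave a count of 3, and leaving out knockout replicate 4 gave 2. DESeq2 called 5. Over all genes these fits called 311, 191, 170 and 302 higher, against 185 by edgeR with all 15 libraries.

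In the C/EBP and IL-6 list Cebpd was the 1 gene of 13 called, with the same losses as above, against 1.67% of all genes called higher. Without Cebpd and Cebpb none of 11 was called or had an unadjusted p under 0.05, and the median log2 difference was -0.06. Clock genes, which share daily timing with Klf15 and Fkbp5, gave no call in 16 by edgeR or any of the 24 alternatives. At an unadjusted p under 0.05, 2 were lower, against 13.6% of all genes in either direction. Immediate early genes also gave no call in 10 by edgeR, with 9 negative differences and 1 positive, while 50.6% of all tested genes had a positive one. At an unadjusted p under 0.05, 3 were lower, against the same 13.6%. Atf3 had the smallest p (1.25 ± 0.566 and 0.544 ± 0.152 CPM, log2 -1.20 ± 0.39, adjusted p = 0.148). In this list 1 gene was called lower when control replicate 7 was left out, 1 when knockout replicate 4 was, and 2 when both were, while DESeq2 called none. Over all genes these fits called 154, 60, 148 and 159 lower, against 55 by edgeR with all 15 libraries.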

How the data were processed

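Gene expression was measured by SAGE in gastrocnemius muscle of 8 control and 7 knockout mice, 15 libraries in all. Per the labels' protocols, 500 ng of Trizol RNA per sample went into barcoded SOLiD SAGE libraries. The raw tag counts per gene symbol are those the authors deposited, and 360 empty lines were dropped. The authors also deposited a normalized signal table, which was the counts over a per-library size factor to within a relative 5.42e-10, and DESeq2 (version not given) with the builds mm10 and GRCm38.p1 are named per the submitters' processing notes. No source used here gives the aligner or how tags were assigned to genes.

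The test was edgeR 4.0.16 under R 4.3.3 (quasi-likelihood, robust, TMM, filterByExpr with minimum count 10, group as the only term), with Benjamini-Hochberg adjustment over 11062 genes at 0.05. SE is the log2 difference over the square root of F. The procedure was tested on simulated data. Log2 CPM used a prior count of 2. Single values and sums were compared by exact permutation over 6435 splits, and correlations by 100000 permutations within groups. Alternatives were RLE scaling, library size alone, the authors' size factors, DESeq2 1.42.0, limma voom 3.58.1, no low-count filter, a mean of at least 20 counts, the replicate number as a block, and leaving out libraries. All 49 pairs of replicates differed by more than sampling noise (chi-square per degree of freedom at least 11.1). Named genes were the 10 members, Cpt1b, up to 4 called genes per list (or that with the smallest p) and the 3 most similar genes per member. One gene that this rule names is not reported here. The members, lists and left-out libraries were chosen with earlier results of these data known. The promoter table is RefSeq GRCm38.p6 and the annotation GENCODE M21. No proteins were used here. The remaining marker lists had summed levels with exact permutation p of 0.679 (macrophage), 0.336 (endothelium), 0.185 (smooth muscle), 0.425 (satellite cell), 0.465 (lymphocyte and granulocyte), 0.543 (erythroid) and 0.620 (Schwann cell), each adjusted to at least 0.463.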

Additional observations from a re-analysis of the deposited data

Results flagged for a closer look

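In 3 of the 20 groups of levels examined (10 genes in 2 genotypes) 1 library lay far from the rest, where chance flags about 1 group in 20. Trim63 in knockout replicate 4 was 492 CPM, against 340 CPM in the next highest knockout. Klf15 in control replicate 7 was 11.4 CPM, against 6.49 CPM in the next highest control. Eda2r in knockout replicate 3 was 32.4 CPM, against 24.0 CPM in the next highest knockout, and it was still below every control.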

How the results depend on the processing

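Eda2r kept its direction and its call in all 24 alternatives, with a log2 difference from -0.95 to -0.80 (adjusted p from 9.29e-09 to 0.0184). Fbxo32, Trim63, Foxo1, Foxo4, Fkbp5 and Cebpb kept their direction and passed in none of the 24. With the replicate number as a block the log2 difference of Foxo1 was -0.12. Without knockout replicate 4 that of Foxo4 was -0.23 and that of Fkbp5 0.17, and without knockout replicate 7 Fkbp5 was also at 0.17. Fbxo32 ran from 0.05 to 0.17. Klf15 passed in 1, without control replicate 7, and its log2 difference without single libraries ran from 0.55 to 1.14. Cebpd kept its direction in all 24 (adjusted p from 0.00283 by DESeq2 to 0.0697), and without single libraries its log2 difference ran from 0.93 to 1.23. The number of the 10 genes called higher ran from 0 to 2 without single libraries, and the number called lower was 1 throughout.

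Replicate numbers did not pair the samples, since deviations from the group means correlated from -0.45 to 0.31 and 1 of 7 knockouts matched its own number best. With the replicate number as a block over replicates 1 to 7, genes called higher numbered 98 and lower 19, Cebpd stood at 1.10 (adjusted p = 0.0697), 0 of the 10 were called higher, and the called-higher counts were 3 for glucocorticoid-responsive, 0 for Klf15-linked and 0 for C/EBP genes. Over all genes 185 were higher and 55 lower. DESeq2 called 302 and 159, and without single libraries the counts ran from 131 to 311 higher and from 30 to 154 lower. Without both control replicate 7 and knockout replicate 4, 148 were lower, 1 ligase and 2 immediate early genes were lower, and 3 Klf15-linked genes were higher. DESeq2 called 1 ligase lower and 2 insulin and Akt genes and 5 Klf15-linked genes higher, and library size alone called 3 Klf15-linked genes. Without single libraries the counts ran from 0 to 1 for ligases lower, 1 to 2 for insulin and Akt higher, 2 to 7 for glucocorticoid-responsive higher, 1 to 3 for Klf15-linked higher, 0 to 1 for C/EBP higher and 0 to 1 for immediate early lower. The Foxo4 and Klf15 correlation was -0.67 by Spearman's rho and -0.60 without the 2 farthest libraries, past the threshold in neither. Trim63 per Fbxo32 ran from -0.48 to -0.25 without single libraries. Where a call changed, the cause was not tested. The lowest depths were those of Foxo3 and Cebpb, with means of 7 and 22.1 tags per library.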
